A study of Caenorhabditis elegans with 2 samples.

Results

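The peaks described here are regions precipitated with tagged MES-2 that lie inside head-to-head promoters, the stretches of DNA between 2 genes that start close together and are read away from each other. A peak of the thresholded list was a member when it was on one of the 5 autosomes and its summit lay between the starts of 2 protein-coding genes of the WBcel235 annotation on opposite strands, pointing apart, with at most 1000 bp between the starts and the summit within 500 bp of at least one of them. The rule picked 643 of 5501 thresholded peaks, which is 11.7% (95% exact interval 10.8 to 12.6), and 14.1% of the peaks on autosomes. It used position only, so the signal, the replicate values, the sequence and the function of the genes were not part of the choice.

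The assay was chromatin immunoprecipitation with sequencing on whole L4 larvae of Caenorhabditis elegans, hermaphrodites of the transgenic strain OP248. These worms express MES-2 fused at its C-terminus to GFP and FLAG, and chromatin sheared by sonication was precipitated with an antibody against GFP. There was 1 group, sampled in biological replicates 1 and 2. Peaks were called against a control alignment, no sample without the tag was analysed here, and the part of a peak's signal that depends on MES-2 was not tested. All cells of the larva were pooled, so a weak peak in many cells and a strong peak in few cells cannot be told apart.

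The MES-2 protein is related to Enhancer of zeste of flies. With MES-3 and MES-6 it forms the worm's Polycomb repressive complex, in which it methylates lysine 27 of histone H3. The complex is best known in worms for keeping genes silent in the germ line. A head-to-head promoter is a compact arrangement in which one open stretch of chromatin can serve the upstream regions of both genes, and in many genomes such pairs often hold genes that most cells use.

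The DNA between the starts is shown first for the strongest short intervals, since these show what lies under the summits. They are the 8 members of highest pooled signal on chromosomes II to V whose starts are at most 300 bp apart, clipped to the part outside annotated exons, on the plus strand of ce11 (WBcel235, RefSeq sequence), with the gene read to the left named first. Capitals mark matches on either strand to the 5 words GAGAGA and TGCGTCTC and GCGCAC and GAGGAGT and TGGCCTAG, and matches may overlap.
cux-7 and C07H6.2, chrIII:7520846-7521008: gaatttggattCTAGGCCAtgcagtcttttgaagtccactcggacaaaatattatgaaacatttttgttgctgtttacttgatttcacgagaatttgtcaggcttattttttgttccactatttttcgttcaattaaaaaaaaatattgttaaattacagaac
F10E9.7 and F10E9.5, chrIII:8307442-8307591: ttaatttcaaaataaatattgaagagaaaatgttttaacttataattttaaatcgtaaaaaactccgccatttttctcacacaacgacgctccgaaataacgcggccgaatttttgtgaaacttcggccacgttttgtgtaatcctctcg
lron-10 and hpr-9, chrIII:10621370-10621550: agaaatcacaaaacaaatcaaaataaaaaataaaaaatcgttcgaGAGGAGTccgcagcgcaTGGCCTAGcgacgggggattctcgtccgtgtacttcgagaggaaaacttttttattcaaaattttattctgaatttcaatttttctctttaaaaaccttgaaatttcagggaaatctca
ears-2 and uncp-18, chrIV:390469-390559: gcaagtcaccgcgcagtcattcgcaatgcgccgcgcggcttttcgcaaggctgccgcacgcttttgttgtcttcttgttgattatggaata
mib-1 and smc-3, chrIII:11290677-11290903: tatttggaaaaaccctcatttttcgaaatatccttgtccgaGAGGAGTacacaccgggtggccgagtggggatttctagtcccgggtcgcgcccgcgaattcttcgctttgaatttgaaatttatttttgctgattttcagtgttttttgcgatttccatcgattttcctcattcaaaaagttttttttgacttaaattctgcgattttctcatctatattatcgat
E02H1.1 and tag-124, chrII:9591165-9591291: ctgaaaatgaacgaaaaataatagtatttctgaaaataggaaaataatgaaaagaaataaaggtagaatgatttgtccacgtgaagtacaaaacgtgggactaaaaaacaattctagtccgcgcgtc
C01G10.10 and C01G10.9, chrV:15082442-15082529: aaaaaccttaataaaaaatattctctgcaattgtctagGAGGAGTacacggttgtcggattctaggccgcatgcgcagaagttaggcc
C35A5.8 and hda-11, chrV:10525909-10526183: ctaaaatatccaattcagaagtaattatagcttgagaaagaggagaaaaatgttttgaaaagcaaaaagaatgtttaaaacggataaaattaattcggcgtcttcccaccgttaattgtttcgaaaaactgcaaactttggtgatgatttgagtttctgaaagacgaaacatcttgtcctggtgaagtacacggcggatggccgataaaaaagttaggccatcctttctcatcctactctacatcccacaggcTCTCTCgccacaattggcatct
The summit of cux-7 and C07H6.2, the strongest of all thresholded peaks, lies at base 2 of its line, near a match to TGGCCTAG. The interval of lron-10 and hpr-9 holds GAGGAGT and TGGCCTAG close to its summit at base 80, and those of mib-1 and smc-3 and of C01G10.10 and C01G10.9 hold GAGGAGT. The only match in the line of C35A5.8 and hda-11 is to GAGAGA. The other lines hold none of these letters.

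For contrast, the next lines show 3 intervals without a peak. They are the first by position among 47 pairs on chromosomes II to V with both genes named by class, 150 to 300 bp apart, and with no summit of the unthresholded pooled list within 500 bp of the interval.
fbxc-17 and fbxc-15, chrII:979236-979422: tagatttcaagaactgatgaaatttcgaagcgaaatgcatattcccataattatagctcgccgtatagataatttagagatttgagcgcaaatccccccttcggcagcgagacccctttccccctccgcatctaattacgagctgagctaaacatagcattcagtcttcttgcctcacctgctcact
fbxb-5 and btb-8, chrII:1722495-1722769: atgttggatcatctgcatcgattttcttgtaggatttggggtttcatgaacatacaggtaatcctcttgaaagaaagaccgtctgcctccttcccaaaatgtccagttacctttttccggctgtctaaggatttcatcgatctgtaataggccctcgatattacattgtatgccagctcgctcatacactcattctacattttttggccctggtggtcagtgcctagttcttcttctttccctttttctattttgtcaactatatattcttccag
sdz-12 and bath-31, chrII:3731824-3731972: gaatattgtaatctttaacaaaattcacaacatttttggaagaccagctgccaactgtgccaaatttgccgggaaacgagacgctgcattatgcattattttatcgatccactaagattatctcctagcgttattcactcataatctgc
The pairs are fbxc-17 with fbxc-15, fbxb-5 with btb-8 and sdz-12 with bath-31, and the fbxc, fbxb, btb and bath symbols mark F-box and BTB-domain families. No line of the 3 holds a match to any of the 5 words.

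Member peaks were strong. The authors' signal, 1 positive value per peak whose scale is not stated, had a median of 288 in members, with quartiles at 171 and 503 and extremes at 73.7 and 2503. The 1247 autosomal peaks that lay 0 to 500 bp upstream of a gene start without being members, called single-gene upstream peaks here, had a median of 188, and the other 2680 autosomal peaks had a median of 112. In replicate 1 the overlapping regions had medians of 139 in members and 88.3 at single-gene upstream peaks, and in replicate 2 of 147 and 94.2. The gap between both classes was thus 51.2 in replicate 1 and 52.3 in replicate 2, with medians of members above those of single-gene upstream peaks in both. The distributions overlapped widely, since each class began near the lower limit of the thresholded list and reached far above its median.

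**Figure D1:**
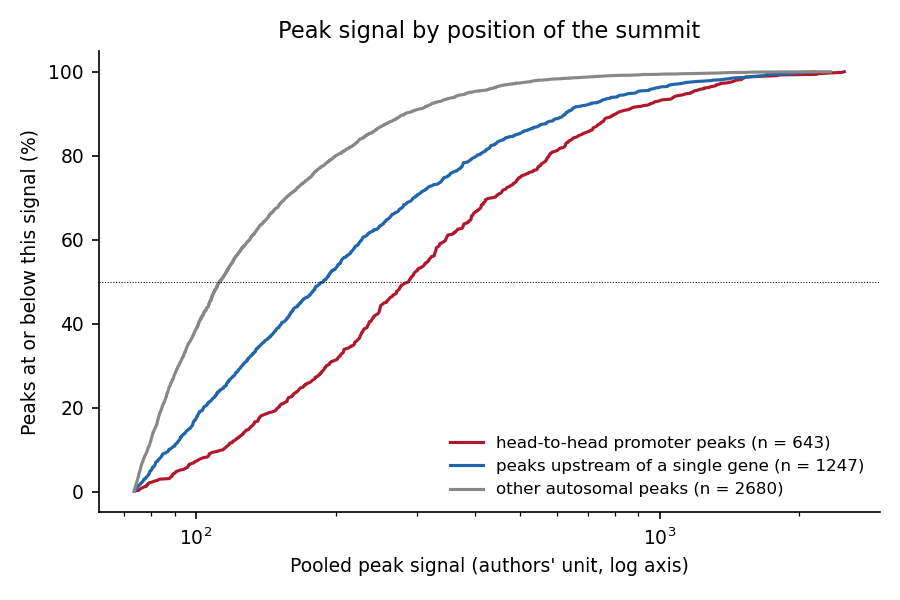
Share of peaks (%) at or below each pooled signal (authors' unit, log axis) for the 643 head-to-head promoter peaks, the 1247 single-gene upstream peaks and the 2680 other autosomal peaks. The curve of head-to-head promoter peaks lies to the right of both others at the dotted 50% line, at a median of 288 against 188 and 112.

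The share of members rose along the order of signal. Of the 1143 autosomal peaks in the strongest signal quartile, 355 were members, or 31.1%, and of the 1142 in the weakest quartile 36 were, or 3.15%. Single-gene upstream peaks went from 39.2% to 15.8% over the same range. Among the strongest 100 autosomal peaks 43 were members and 42 were single-gene upstream peaks.

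The replicates gave nearly the same summits for members. All thresholded peaks had passed a filter on irreproducible discovery rate, which scores agreement between replicates. The agreement given here thus follows in part from that filter. The share of members among the strongest regions also follows in part from their higher pooled signal. Of the 643 members, 552 overlapped one of the 5501 strongest regions of each replicate, which is 85.8% against 64.8% over all thresholded peaks and 75.7% at single-gene upstream peaks. Any listed region of both replicates was overlapped by 620 members, while 9 were matched in replicate 1 alone and 14 in replicate 2 alone. The median distance between the summits of both replicates was 11 bp in members, 13 bp at single-gene upstream peaks and 27 bp at other autosomal peaks. The signals of both replicates had a Spearman correlation of 0.89 over the 620 members, given as a description, since peaks of the same libraries are not independent. The ratio of replicate 1 to replicate 2 signal lay between 0.524 and 1.64 from the 10th to the 90th percentile of members, with a median of 0.956. For most members the signals of both replicates thus agreed only to within this range. The ratio was not alike at all signals, since the 20 strongest members all had the higher signal value in replicate 1. The scale and depth of the lists are unknown, so this does not show stronger binding in replicate 1.

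**Figure D2:**
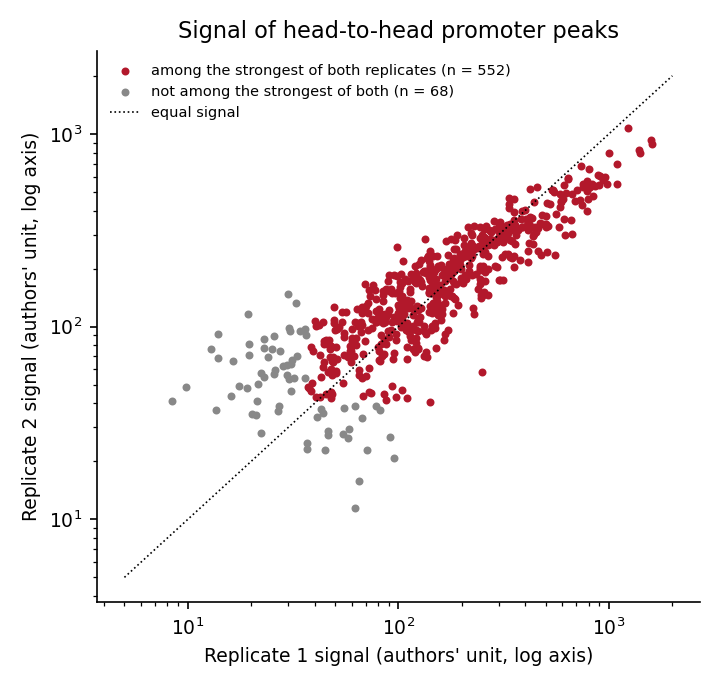
Signal of each member in replicate 1 against replicate 2 (authors' unit, log axes). Points are the 620 members with a region in both lists. The 552 in colour were among the strongest 5501 regions of both replicates, and the 68 in grey were not.

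The members were also divided by signal into 4 equal groups. The share among the strongest regions of each replicate follows in part from this division, as the pooled signal is made from the same replicates. In the strongest group, from 503 up, 98.8% were among the strongest regions of both replicates and the replicate summits were a median of 8 bp apart. In the weakest group, up to 170.2, these values were 51.9% and 17.5 bp. Distance to the nearer start was alike in these groups, with medians of 132 and 120 bp.

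The strongest members sat between genes of varied roles. The summit between cux-7 and C07H6.2 (peak chrIII:7520733-7520963) had signals of 1587 in replicate 1, 929 in replicate 2 and 2503 in the pooled list. It had rank 2 in replicate 1 and rank 4 in replicate 2 and lay 2 bp from the start of cux-7. The next summit lay 29 bp from the start of K10D2.5 and 646 bp from that of prp-19, which encodes a splicing factor, at chrIII:5172567-5172812. Its signals were 1597, 882 and 2472, and it had rank 1 in replicate 1. The summit between rpl-15, a protein of the large ribosomal subunit, and K11H12.8 lay in the middle of an 814 bp interval at chrIV:654809-655054. Its signals were 1225, 1072 and 2315, and it had rank 1 in replicate 2. These 3 summits were within 3 bp of each other between replicates, so the position was fixed far better than the signal, which differed up to 1.81-fold.

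Genes of cell division and DNA repair stood at several of the next peaks. The peak between let-630 and hcp-6, which encodes a condensin subunit, had 1095 in replicate 1 and 547 in replicate 2. That between lron-10 and hpr-9, the RAD9 member of a DNA damage checkpoint clamp, had 976 and 550.1. The peak between mib-1, which encodes a ubiquitin ligase, and smc-3, a cohesin subunit, had 862 and 538. At ska-1, which encodes a kinetochore protein, and Y106G6H.16 the values were 788 and 566. All 4 peaks had the higher signal value in replicate 1, as had the 20 strongest members without exception. Ranks went both ways, with 16 in replicate 1 and 56 in replicate 2 at let-630 with hcp-6. At ears-2 with uncp-18, also among these 20, they were 68 and 20.

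Ribosomal and mitochondrial genes made up another part of the strongest 20. The peak between Y48B6A.1 and rpl-43 had 889 and 609 in replicates 1 and 2, that between rps-23 and dpm-3, a subunit of the dolichol-phosphate mannose synthase, had 907 and 608, and that between rpl-20 and Y17G9B.5 had 801 and 655. The peak between rict-1, which encodes the Rictor subunit of TORC2, and gfm-1, a mitochondrial elongation factor, had 832 and 547. The shortest interval among the 20 was the 92 bp between ears-2, a mitochondrial glutamyl-tRNA synthetase, and uncp-18, with 738 and 679.9. The other strong pairs were F56G4.6 with wbp-4, F10E9.7 with F10E9.5, W02H5.16 with W02H5.19, K01G5.10 with the taspase gene tasp-1, F01D4.5 with the engulfment gene ced-5, ahsa-1, which encodes an activator of the HSP90 ATPase, with C01G10.7, F09E5.11 with bmy-1, and C56A3.6 with the caveolin gene cav-2. Their pooled signals lay between 1349 and 2200.0.

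Not every head-to-head promoter had a peak. The autosomes hold 1665 neighbouring pairs of the rule's geometry, and 624 of them had a member, which is 37.5% (exact interval 35.1 to 39.9). Counted by gene, 1248 of 3330 head-to-head genes, again 37.5%, were in a pair with a member. A summit in the 500 bp upstream of their own start was found for 1182, or 35.5%. A member can count here for both genes of its pair, so these shares are not numbers of peaks per gene. Of the 13912 other autosomal protein-coding genes, 1216 had a summit in the same 500 bp, which is 8.74%. Genes deep in an operon have no promoter of their own, so the share was also taken over the 9467 other genes with no protein-coding gene in those 500 bp, and it was 8.36%. Per kilobase, the head-to-head intervals held 0.785 summits and the upstream windows of other genes 0.176. Each interval lies upstream of 2 genes, while each window was taken for 1 gene. The X chromosome, outside the rule, had a peak in 24 of 80 such pairs, or 30% (20.3 to 41.3), an interval that includes the autosomal share.

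Pairs without a member were mostly without any listed region. Of these 1041 pairs, 110 held a summit of the unthresholded pooled list of 30000 regions, or 10.6%, and 80 held one with a −log10 q of at least 2. A region of the replicate 1 list was found in 135 of them and one of the replicate 2 list in 163. Of the 624 pairs with a member, 601 and 614 held one. The lists end at 30000 regions and give no read counts, so weaker binding in the remaining pairs was not detectable.

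Whether a pair had a peak varied with the distance between its starts. Of 242 pairs at most 200 bp apart, 47 had a member, or 19.4% (14.6 to 25). Of 636 pairs over 200 and up to 500 bp apart, 315 had one, or 49.5% (45.6 to 53.5), and of 787 wider pairs 262 had one, or 33.3% (30 to 36.7). The strongest regions of each replicate gave the same order, with 19.8%, 45.9% and 33.0% in replicate 1 and 20.7%, 51.4% and 34.6% in replicate 2. A short interval leaves less room for a summit, and counting summits up to 200 bp outside the interval as well gave 28.9%, 52.4% and 35.2%. Signal moved little with spacing, with medians of 295, 295 and 266. The 3 spacing classes were chosen after the data were seen.

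**Figure D3:**
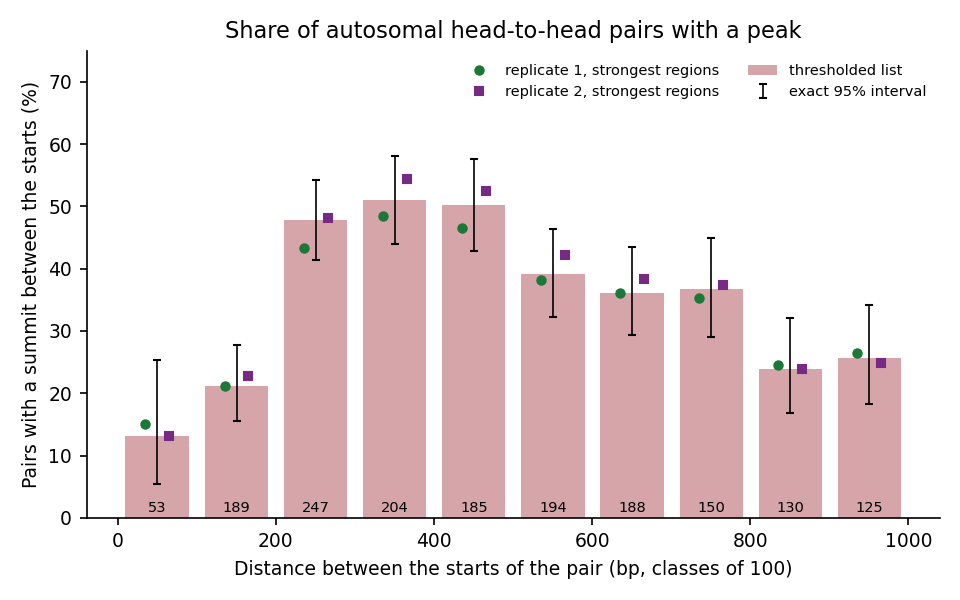
Share of autosomal head-to-head pairs (%) with a thresholded summit between the starts, by distance between the starts in classes of 100 bp. Bars are the thresholded list with exact 95% intervals, points are the same share for the 5501 strongest regions of each replicate, and the number in each bar is the number of pairs. The share was near 50% between 200 and 500 bp and fell to 25.6% in the widest class.

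The place of the summit within the interval varied with the distance between the starts. The distance to the nearer start had a median of 132 bp, with quartiles at 63.5 and 190 bp, a value that the spacing limits, since it cannot pass the midpoint of the interval. Measured from the start on the minus strand at 0 to the start on the plus strand at 1, the summit had a median position of 0.515, with quartiles at 0.314 and 0.696. Of the 643 summits 307 lay nearer to the gene on the minus strand, or 47.7%. Both starts were within 500 bp of the summit in 506 members. In pairs over 200 and up to 500 bp apart 52.4% of summits (46.7 to 58.0) fell in the central one of 3 equal parts of the interval. In closer pairs 34.0% did (20.9 to 49.3) and in wider pairs 38.0% (32.3 to 44.0), and both intervals include the share that an even spread over the 3 parts would give. The nearer start was a median of 33 bp away in the closest pairs, 108 bp in the middle class and 187 bp in the widest. The summit itself was inside a protein-coding gene in 10 members and on a start base in 3.

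**Figure D4:**
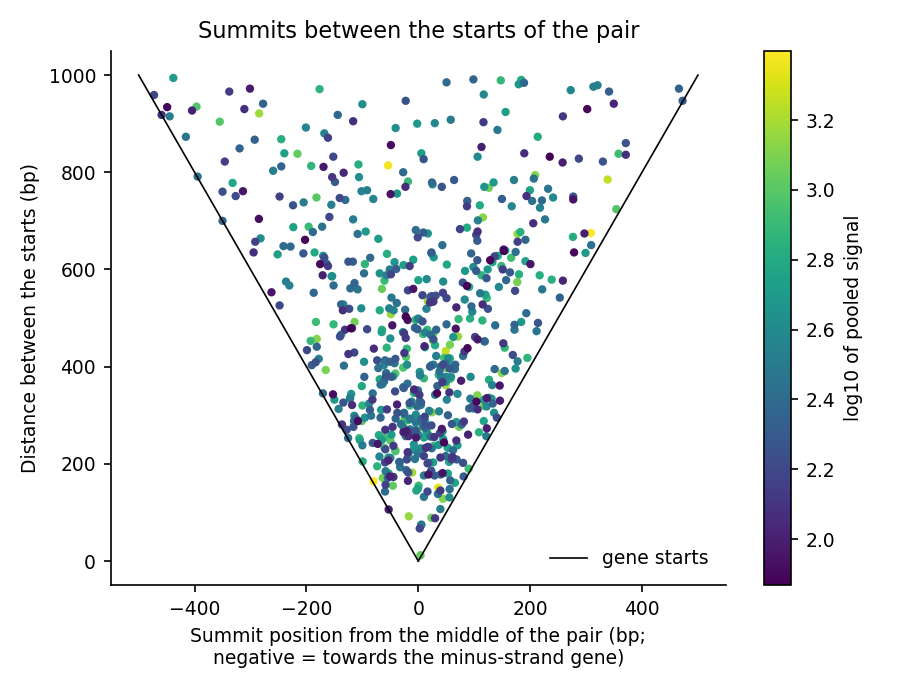
Position of each of the 643 member summits relative to the middle of its pair (bp, negative towards the gene on the minus strand) against the distance between the starts (bp). Lines mark the gene starts and colour gives log10 of pooled signal. In pairs over 200 and up to 500 bp apart 52.4% of summits lie in the central one of 3 equal parts, against 34.0% in closer and 38.0% in wider pairs.

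Some wide intervals held more than one peak. A pair of members fell in each of 17 pairs of genes, whose starts were a median of 751 bp apart, and no interval held more. Between ecps-1 and atx-2, which encodes the worm ataxin-2, starts 838 bp apart, one summit lay 203 bp from ecps-1 with signals of 592 and 446 in replicates 1 and 2, and another lay 61 bp from atx-2 with 478 and 381. Between mtx-1, which encodes the mitochondrial outer membrane protein metaxin, and the chaperone gene dnj-12 the summits lay 63 bp from mtx-1 and 62 bp from dnj-12. Their signals were 485 and 339 for the former and 256 and 243 for the latter. The summits between the nuclear hormone receptor gene nhr-142 and F44E7.9 lay 150 bp from nhr-142, with 165 and 85.7, and 156 bp from F44E7.9, with 363 and 299.9. In these 3 pairs each summit lay nearest to a different gene. The remaining pairs of highest summed signal were sup-35 with Y48A6C.4, T23H2.3 with npp-12 and aka-1 with ubc-6, whose weaker peaks had 106, 118 and 266 in the pooled list.

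Genes of general cell processes, from translation to chromatin regulation, were common beside the members. Such processes were named by gene symbol in 15 lists. The lists were chosen with earlier results of these data known, so their shares are a description. Of their 387 head-to-head genes 294, or 76.0% (71.4 to 80.1), were in a pair with a member, against 37.5% of all head-to-head genes. A gene was counted when its pair held a member, also where the summit was nearer to the partner. Of the 552 genes of these lists outside such pairs 213 had a summit 0 to 500 bp upstream, or 38.6%, against 8.74% of all genes there. At least 1 gene of these lists was in 262 of the 624 pairs with a peak and in 83 of the 1041 without. Pairs with 1 such gene had a peak in 75.9% of cases and pairs with 2 in 76.2% (60.6 to 88.0), so the share with 2 list genes was within the interval of that with 1.

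Ribosomal proteins led these lists. Of 48 head-to-head genes for cytoplasmic ribosomal proteins 44 had a member in their pair, or 91.7% (80 to 97.7), with a median signal of 458. The summit was nearer to the partner than to the ribosomal gene in most of these 42 peaks, since 14 lay nearer to the ribosomal gene, at median distances of 298 bp from it and 227 bp from the partner. Both genes of a pair encode ribosomal proteins at rps-10 with rpl-24.1, at rps-14 with rpl-36 and at rpl-39 with rps-30. The signals in replicates 1 and 2 were 299.6 and 311 at the first, 235 and 257 at the second and 207 and 186 at the third. All 3 were above the member medians of 139 and 147.

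Lists of translation and protein turnover ranged from 43.5% to 81.8%. Translation factors had a member in the pair for 18 of 24 head-to-head genes, with a median signal of 573, and eif-3.E, a subunit of initiation factor 3, with B0511.17 had 585 and 419.6. Mitochondrial ribosomal proteins had 18 of 25, and their strongest, mrpl-18 with C14B9.8, had 668 and 302, while mrps-7 with Y57G11C.3 had 255 and 289. Of 11 aminoacyl-tRNA synthetase genes 9 were in a pair with a member, but their median signal was low at 125, and aars-1, the alanyl-tRNA synthetase gene, with rga-1 had 160.4 and 123. Proteasome subunits had 16 of 20, with rpn-3 beside the chaperone gene hsp-110 at 229 and 334 and rpn-9 with T06D8.9 at 267 and 232. Ubiquitin conjugation genes had 10 of 23, or 43.5% (23.2 to 65.5), an interval that includes the share of all head-to-head genes. Its strongest were ubh-4, a ubiquitin hydrolase gene, with algn-6 at 415 and 217, and ubc-12 with rbm-3.2 at 171 and 235.

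Energy metabolism, folding and transport gave shares between 52.2% and 85.0%. Genes of the respiratory chain and ATP synthase had a member for 27 of 35, with atp-5 and lmtr-3 at 796 and 462 and nduc-2 with Y71H2AM.20 at 454 and 532. Chaperones had 25 of 34, and dnj-28 with supr-1 had 728 and 454. The vacuolar ATPase and sorting list had 12 of 17, with snx-13, a sorting nexin gene, and snr-1, which encodes a core protein of the spliceosome, at 411 and 319. Small GTPase and vesicle traffic genes had 12 of 23, or 52.2% (30.6 to 73.2), an interval that includes the share of all head-to-head genes. Among them copz-1, a coatomer subunit gene, with cyn-4 had 586 and 485, and exoc-7, of the exocyst, with tufm-2 had 745 and 426. Nucleoporins and nuclear transport genes had 17 of 20, with npp-3 and the topoisomerase gene top-2 at 296 and 289.9 and the importin gene imb-1 with mfsd-13.1 at 345 and 227.

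The nuclear lists were occupied to a similar degree. Splicing and mRNA 3' end processing genes had a member for 33 of 37, or 89.2% (74.6 to 97.0). The list of RNA polymerase II, TFIID, Mediator and Integrator had 13 of 17. Of its strongest, taf-11.3 with urm-1 had 306 and 296, while taf-7.2 with elpc-2 had 434 in replicate 1 and no overlapping region in the replicate 2 list. Cell cycle and replication genes had 23 of 33, with psf-1, a subunit of the GINS replication complex, and R53.4 at 505 and 328. Chromatin regulators had 18 of 23, or 78.3% (56.3 to 92.5), and the highest median signal of the 15 lists, 776. Among them lin-54, a DREAM complex subunit gene, shares its promoter with rpl-12 at 638 and 586, and hda-11, a histone deacetylase gene, with C35A5.8 at 691 and 447. The Rb homolog lin-35 with vps-51 had 505 and 342. In 4 of the 18 peaks of the chromatin list the summit was nearer to the chromatin gene than to its partner, so proximity ran mostly to the other gene.

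**Figure D5:**
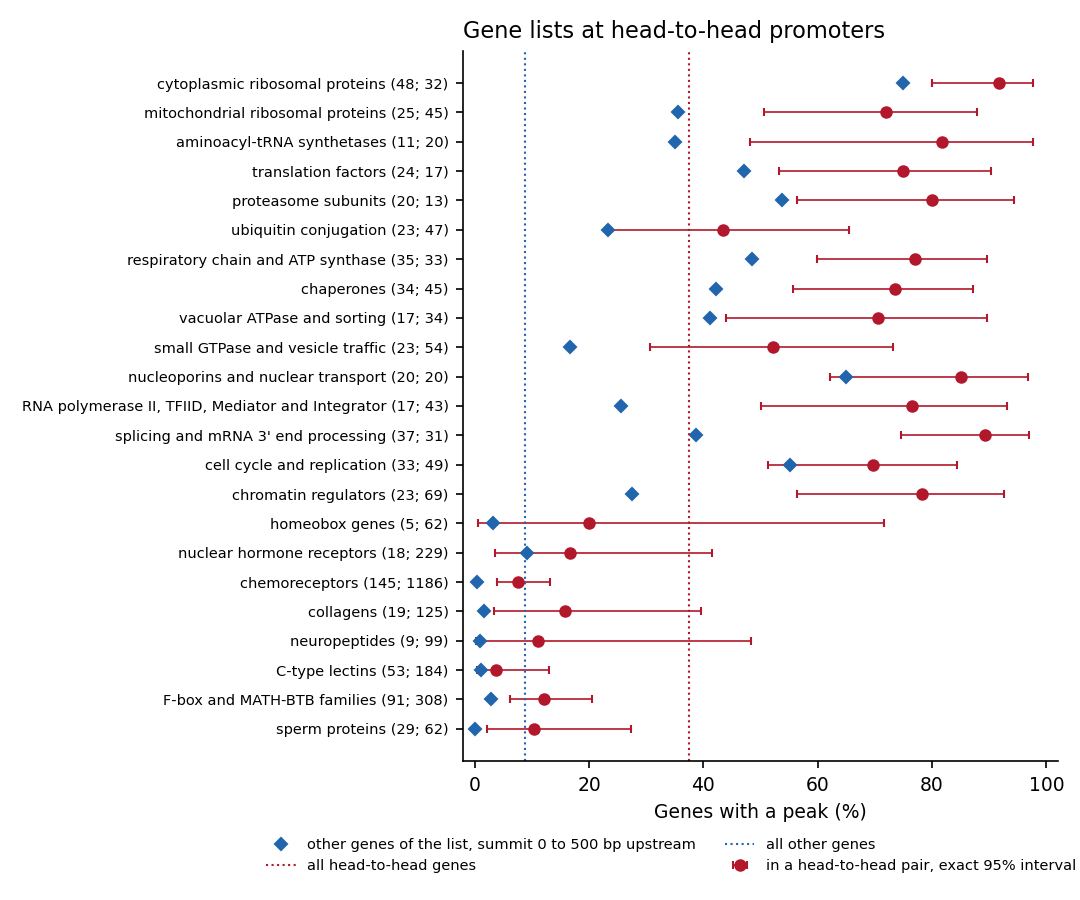
Share of genes with a peak (%) for each of 23 gene lists. Red points are genes of the list that start a head-to-head pair, counted when the pair holds a member, with exact 95% intervals. Blue diamonds are the other genes of the list, counted when a summit lies 0 to 500 bp upstream. The numbers after each name are the genes in and outside pairs, and dotted lines give the shares over all genes of both kinds, 37.5% and 8.74%. The points of the upper 15 lists lie to the right of the red line and those of the lower 8 to its left, though some intervals cross it. The lists were chosen with earlier results of these data known.

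The other 8 lists, of tissue-restricted or expanded gene families, had few members. They too were chosen with earlier results of these data known. Of their 369 head-to-head genes 35 were in a pair with a member, or 9.49% (6.70 to 12.9), against 1.82% of their other genes by the upstream window. Chemoreceptors, the large families of sensory receptors, had 11 of 145, F-box and MATH-BTB genes had 11 of 91, C-type lectins 2 of 53, sperm proteins 3 of 29, collagens 3 of 19, nuclear hormone receptors 3 of 18, neuropeptides 1 of 9 and homeobox genes 1 of 5. The counts for the last 4 are too small to place, since their intervals reached 39.6% or more. For sperm proteins the interval was 2.19 to 27.4%.

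The counts were also split by the partner gene. Among pairs with 1 gene of the 8 families, 10 had a partner on the first 15 lists and 7 of these had a member, or 70% (34.8 to 93.3). Of those with a partner on no list 20 had one, or 9.95% (6.18 to 14.9), and of 79 pairs with both genes from the 8 families 4 had one, or 5.06% (1.40 to 12.5). Peaks between a gene of the 8 families and a gene of another kind included col-2 with ndc-80, which encodes a kinetochore protein, at 326 and 290.0. Families were assigned by gene symbol alone, so math-33 may differ in kind from the rest of its list. Other such peaks were erfa-3, which encodes a release factor, with math-33 at 304 and 350.1, and fbxb-85 with hex-3 at 305 and 330.4. These summits lay 430 bp from col-2 and 256 bp from ndc-80, 515 bp from math-33 and 301 bp from erfa-3, and 59 bp from fbxb-85 and 200 bp from hex-3. The chemoreceptor gene sri-5 with rsr-1, which encodes a splicing coactivator, had 315 and 322. The dnj-19 and nhr-47 pair had 244 and 196, and the summit lay 24 bp from nhr-47 and 372 bp from dnj-19. The nlp-4 peak with exos-3, an RNA exosome subunit gene, had 153 and 205. The clec-87 peak with rsa-1 was weak, at 31.9 and 54.3. The duxl-1 peak with ZC204.14 was the single one of the homeobox list, at 91.0 in replicate 1 and 26.9 in replicate 2, where it ranked 8726.

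Other peaks of these lists were not all weak. The collagen gene col-71 with Y49F6B.2 had 752 and 549.7, and spe-48, of the sperm list, with Y51F10.11 had 338 and 283. The lectin gene clec-57 with srz-97 had 113 and 100. The peak between spn-4 and spe-39, both needed in the germ line or early embryo, had 273 and 284.

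Gene annotation around the pair also went with the peaks, in comparisons chosen after the data were seen. Worm operons are runs of genes on one strand that share a promoter. Pairs in which neither gene was followed by a same-strand gene within 500 bp had a member in 27.7% of cases, pairs with such a gene behind 1 of both had one in 48.5%, and pairs with such a gene behind each had one in 65.2%. A class symbol is a name of letters, a hyphen and a number, and genes of families such as fbxc-17 have one too. Pairs in which both genes had a class symbol had a member in 48.7%, pairs with 1 such gene in 38.9% and pairs with none in 14.7%. An annotated non-coding gene or pseudogene lay in the interval of 146 pairs, of which 52.7% had a member, against 36.0% of the others. By kind, no member interval held a tRNA gene, 5 held a snRNA or snoRNA gene, 1 a miRNA gene, 7 a piRNA gene and 69 a gene annotated as ncRNA. The like counts over all pairs were not made, so these do not show how members differ from other pairs.

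The autosomes differed in their shares. On chromosome III 159 of 290 pairs had a member, or 54.8% (48.9 to 60.7), and on chromosome V 105 of 423 did, or 24.8% (20.8 to 29.2). The first autosome had 47.5%, chromosome II 33.3% and chromosome IV 32.5%. In the outer parts of the chromosome against the central one of 3 equal parts, the shares were 21% and 31.1% on chromosome V, 29.2% and 39.4% on chromosome II, 52% and 58.8% on chromosome III, and 34.5% and 29.9% on chromosome IV. On the first autosome they were 51.9% and 41.2%, so the autosomes did not run one way. The median signal of members was alike, between 253 on chromosome V and 308 on chromosome IV.

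The sequence around the summits was compared with that of intervals without a peak. In windows reaching 100 bp to each side of a point, the G and C share was 39.3% ± 6.18 (SD over 643 windows) at member summits, 40.8% at single-gene upstream summits and 33.7% at the midpoints of pairs without a peak. Windows at the midpoints of pairs with a peak, placed like those of pairs without one, had 35%. TATAAA was in 15.6% of member windows and 30.5% of windows without a peak, and TGATAA, which resembles the site of GATA factors, in 10.3% and 21.4%. At the midpoints of pairs with a peak these shares were 22.9% and 16.2%, which narrows both gaps. Over windows of the same length upstream of all 17242 autosomal gene starts these shares were 30.7% and 23.0%. The letters were searched on both strands, and a match is not a binding site.

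Several short words were commoner at member summits. All words here but GCGCAC, like TATAAA and TGATAA above, were chosen with earlier results of these data known. Their shares are thus a description. GAGAGA was in 26.1% of member windows, in 10.6% of windows without a peak and in 16.2% of all promoters. CCGCCC was in 13.7%, 4.23% and 5.86%, and TGCGTCTC in 7.62%, 1.44% and 2.74%. GCGCAC, chosen after the windows were seen, was in 22.2%, 4.03% and 4.03%, and of the 143 member windows with it 131 had it within 50 bp of the summit. At the midpoints of pairs with a peak the shares lay between, with 18.1% for GAGAGA, 9.29% for CCGCCC, 4.81% for TGCGTCTC and 15.1% for GCGCAC, so part of each gap comes with centring the windows on summits. The remaining words searched differed less between member windows and windows without a peak, with 3.89% and 2.98% for TTCCCGC, 71.5% and 70.7% for TTTTTT, 30.8% and 30.5% for TTTCAG, 2.18% and 4.8% for CACGTG and 28.1% and 31.2% for CCAAT. Over all promoters they were in 2.30%, 71.0%, 37.7%, 4.36% and 32.3% of windows, in that order. GAGAGA and TGCGTCTC were more frequent still at single-gene upstream summits, with 32.6% and 14.2%, while GCGCAC and CCGCCC were less frequent there, with 15.2% and 8.90%.

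The words seen in the printed intervals, GAGGAGT and TGGCCTAG, marked the strongest members. They were chosen after those intervals had been read, so their shares at the top are a description. GAGGAGT was in 12 of the 25 strongest member windows, in 20.5% of the strongest quartile and in 2.48%, 2.48% and 3.12% of the following quartiles. TGGCCTAG was in 12 of the 25 strongest, in 14.9% of the strongest quartile and in 1.86%, 4.35% and 3.12% of the others. Among all autosomal promoters the words were in 1.82% and 0.841% of windows, and in pairs without a peak in 2.21% and 0.576%. Members with GAGGAGT had median signals of 434 and 334 in replicates 1 and 2, and members with TGGCCTAG 438 and 314, against 139 and 147 over all members. The words lay near the summit, within 50 bp in 45 of 46 and in 39 of 39 windows. At the midpoints of pairs with a peak the shares were 5.13% and 4.01%. Both together were in 10 member windows, of which 6 were among the 25 strongest, with their first bases 17 to 46 bp apart, in 5 single-gene upstream windows and in no window of a pair without a peak. All 10 were in the strongest quartile of members, with median signals of 791 and 536 in replicates 1 and 2.

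The same words were counted at single-gene upstream summits, which had no part in choosing them. GAGGAGT was in 10 of the 25 strongest of these peaks, in 10.3% of their strongest quartile (7.12 to 14.2) and in 3.86% of their weakest (2.01 to 6.64). TGGCCTAG was in 8 of the 25 strongest, in 12.5% of the strongest quartile (9.04 to 16.7) and in 0.322% of the weakest. The words were thus not particular to head-to-head promoters. GAGAGA went the other way there, from 21.8% in the strongest quartile to 37.9% in the weakest, and in members from 21.7% to 26.9%.

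Peaks just inside and just outside the limit on spacing overlapped in signal. Among the members of widest spacing were B0495.9 with sre-1 at 994 bp, bath-42 with the splicing gene prp-8 at 990 and larp-1 with wip-1 at 989. The pooled signals of these 3 lay between 502 and 758. Just outside were spd-1, which encodes a microtubule-bundling protein of the spindle midzone, with Y34D9A.3 at 1007 bp, cap-1 with D2024.4 at 1012, xrep-4 with cey-2 at 1018 and coa-5 with car-1 at 1021. Their pooled signals lay between 128 and 782.

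The replicates did not agree on all members. Replicate 1 alone matched 9 members and replicate 2 alone 14, and 68 more were in both lists but not among the strongest of both. The largest gaps in rank were at pes-9 with R11H6.2, with 8.43 in replicate 1 and 40.9 in replicate 2, at the phospholipase gene plc-4 with R05G6.4, with 9.77 and 48.5, at bmk-1 with coh-3, a kinesin and a cohesin gene, with 62.0 and 11.4, and at ctf-8 with T22C1.5, with 12.9 and 76.2. All 4 were weak in the pooled list, from 76.7 to 106. The strongest members without a region in one replicate's list were taf-7.2 with elpc-2 at 581 in the pooled list, C56A3.4 with C56A3.5 at 579, the cohesin acetyltransferase gene eco-1 with the reductase gene hmgr-1 at 364 and F49C12.9 with the proteasome gene rpn-7 at 328. The first 3 were absent from the replicate 2 list and the last from the replicate 1 list. The mes-2 gene is in no head-to-head pair, and 1 member lay within 20 kb of it, between kbp-3 and nurf-1, with 332 and 308.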

How the data were processed

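The study's processed files are narrowPeak tables for 2 biological replicates of 1 group, and those on ce11 were used here. Per the submitters' file lists there is an unthresholded list for each replicate and for the pooled alignments, and a further one thresholded by irreproducible discovery rate, all called against a control alignment. The sources used here name no aligner, peak caller, version or threshold. The deposited signal column, of unstated scale, served to order peaks within a list and to describe them. The deposited −log10 q-values served only for an alternative list. Read counts are not part of the lists, the depth is unknown, and exact Clopper-Pearson 95% intervals cover counting error only.

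A gene's start was the 5′ end of its protein-coding record in Ensembl release 115 of WBcel235. A replicate's value is that of the strongest region overlapping a peak by at least 1 bp. Words were searched in windows reaching 100 bp to each side of the summit, or of the midpoint of a pair without a peak, in the RefSeq WBcel235 genome, and over 200 bp upstream of all autosomal starts. Tools were Python 3.11.15, numpy 2.4.6, pandas 2.3.3, scipy 1.17.1 and matplotlib 3.10.9. The rule was checked on simulated starts and summits. Nothing was tested over peaks, because the design has 1 group. The labels call the replicates biological and say no more of separate cultures.

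The members, the 23 gene lists, the comparisons and the first 10 words were chosen with earlier results of these data known. GCGCAC and GAGGAGT and TGGCCTAG were added later, as were the spacing classes, the chromosome parts, the same-strand genes and the non-coding genes. The genes named are those of the 20 members of highest signal, the 2 strongest members of each list, the 4 widest members and the 4 peaks just beyond, up to 6 pairs with more than 1 member, the 4 members of largest replicate rank gap, the 4 strongest absent from one replicate's list, and mes-2. Of these, 2 pairs are not reported here. The ribosomal pairs were named after their values were seen. Positions are 1-based, and the ce10 lists were not used here.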

Additional observations from a re-analysis of the deposited data

How the results depend on the processing

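Directions held under the alternatives run, except for those named below as reversed. With the 2750 strongest of the thresholded peaks, 19.1% were members, 31.2% of pairs had one, the median within-list percentile of member signal was 67.6, the gap in median signal to single-gene upstream peaks was 58.9, the gap in median spacing between pairs with and without a peak was -41 bp, and 96.0% of members were among the strongest of each replicate. With pooled regions of −log10 q of at least 2 the first 3 values were 4.31%, 42.3% and 91.7, and the spacing gap was -31 bp.

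With starts at most 500 bp apart, 364 peaks were members, or 6.62% of all, and 41.2% of pairs had one. The percentile was 80.2, the signal gap 93.4, the share of pairs with 2 class symbols 53.3% and the G and C share 38.5%. The spacing gap then reversed to 76 bp, as the low share of the shortest pairs was no longer offset by that of the widest. With any annotated transcript start the share of all peaks was 12.7%, the percentile 78.9, the signal gap 114.0 and the median relative position 0.507. The signal gap was 51.2 in replicate 1, 52.3 in replicate 2 and 87.6 over pairs without a non-coding gene, an alternative added after the data were seen. All regions of each replicate gave an overlap of 96.4%, and a window of 50 bp to each side a G and C share of 46.8%. The cause of these moves was not tested.

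Leaving out a replicate gave percentiles from 78.4 to 78.7, relative positions from 0.513 to 0.522 and spacing gaps from -62 to -38.5 bp. Differences in word share between members and pairs without a peak reversed for TTTTTT (to -0.196 points with relaxed regions and -17.7 in the shorter window), for TTTCAG (to -1.47 with the 2750 strongest peaks, -0.845 with relaxed regions, -0.269 with transcript starts, -7.75 in the shorter window, and from -1.25 to -0.0654 with a replicate left out) and for CCAAT (to 0.182 in the shorter window), so the report gives no direction for them. No paired analysis was possible because there is 1 group. Unknown depth limits what the absence of a peak shows.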
